A study of Mus musculus with 5 samples.

Results

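A set of 10 CXC chemokine genes was followed through the cell types of regenerating mouse muscle, out of 18132 genes listed in the series. They are Cxcl1, Cxcl2, Cxcl3, Cxcl5, Cxcl9, Cxcl10, Cxcl12, Cxcl13, Cxcl14 and Cxcl16, which were taken by name, and all 10 were listed on each of the 4 days sampled. Their UMI counts (unique molecular identifiers, which count captured mRNA molecules) were summed over the cells of each cell type label that the authors had given. The study profiled single cells of the tibialis anterior of C57Bl/6 mice before and after an injection of notexin, a phospholipase from tiger snake venom that lyses myofibres and spares the stem cells that rebuild them. Uninjured muscle (day 0) came from 4-month-old females and was deposited as 2 sequencing runs in 1 matrix. Injured muscle was taken at day 2 from a 7-month-old female, at day 5 from a 4-month-old female and at day 7 from a 4-month-old male, with 1 matrix a day. The day of injury therefore cannot be told apart from the age at day 2, the sex at day 7 or the library on any day. No difference between days has a replicate check, and the intervals given below cover counting error only.

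CXC chemokines are small secreted proteins that steer leukocytes and other cells through G protein-coupled receptors. Cxcl1, Cxcl2, Cxcl3 and Cxcl5 carry the ELR motif and attract neutrophils through CXCR2, and NF-κB is a well known inducer of them. Cxcl9 and Cxcl10 are induced by interferons and attract activated T cells and NK cells through CXCR3. Cxcl12 binds CXCR4, is taken up by the scavenging receptor ACKR3, and retains stem cells and leukocytes in tissues. Cxcl13 attracts B cells and follicular helper T cells through CXCR5, and Cxcl14 is a constitutive chemokine of epithelia and stroma whose receptor is debated. Cxcl16 is made as a transmembrane protein that binds CXCR6 and can be shed. In muscle, fibro-adipogenic progenitors (FAPs, the Pdgfra-positive stromal cells between the fibres), endothelial cells and infiltrating macrophages are candidate sources.

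The 4 neutrophil attractants lie in 1 cluster of 7 CXC genes on mouse chromosome 5 that spans 146579 bases (GRCm38), with Ppbp, Pf4 and Cxcl15 between them. All are protein coding and on the plus strand: Cxcl5 at chr5:90759360-90761624, Cxcl3 at chr5:90786103-90789600, Cxcl1 at chr5:90891241-90893115 and Cxcl2 at chr5:90903871-90905938. Cxcl9 (chr5:92321347-92328079) and Cxcl10 (chr5:92346638-92348889) lie on the minus strand of the same chromosome, within 44139 bases together with Cxcl11. Cxcl13 stands apart from both clusters at chr5:95956951-95961068 on the plus strand. The remaining genes are on other chromosomes, Cxcl12 at chr6:117168535-117181367 (plus), Cxcl14 at chr13:56288643-56296551 (minus) and Cxcl16 at chr11:70453983-70459984 (minus).

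RefSeq promoters on GRCm38.p6 were matched for 8 of the 10 genes, and the 250 bases before each start site were searched on both strands. The consensus of NF-κB was held by 3.90% of all 32851 promoters, the interferon-stimulated response element GAAANNGAAA by 2.98% and the interferon gamma-activated site TTCNNNGAA by 7.02%. Cxcl1, Cxcl2 and Cxcl3 each held the same run of 11 bases, which matches the NF-κB consensus once on each strand in an overlapping position. It lies 71 to 61 bases before the start of Cxcl1, 97 to 87 before that of Cxcl2 and 73 to 63 before that of Cxcl3. These starts are those of the RefSeq promoters, which are not in each case the gene starts given above. For Cxcl2 the stretch ends at 90903898, past the gene start of 90903871. Cxcl10 held an interferon-stimulated response element 213 to 204 bases before its start and NF-κB matches at 159 to 150 and at 103 to 94. The stretches of Cxcl1 and Cxcl2 are shown because these genes share the run and yet were highest in different labels, of FAPs and of immune cells. Those of Cxcl3 and Cxcl10 are shown beside them for their matches. Capitals mark the matches, and each sequence ends at the base before the start site.
Cxcl1, chr5:90891115-90891244, plus strand: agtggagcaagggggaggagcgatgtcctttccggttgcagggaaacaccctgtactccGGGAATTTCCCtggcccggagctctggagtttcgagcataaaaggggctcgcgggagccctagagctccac
Cxcl2, chr5:90903769-90903898, plus strand: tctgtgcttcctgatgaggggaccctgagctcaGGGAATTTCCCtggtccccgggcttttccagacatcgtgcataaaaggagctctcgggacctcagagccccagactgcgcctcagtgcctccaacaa
Cxcl3, chr5:90785971-90786100, plus strand: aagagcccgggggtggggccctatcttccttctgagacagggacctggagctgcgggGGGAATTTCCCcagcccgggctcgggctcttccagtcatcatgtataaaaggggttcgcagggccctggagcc
Cxcl10, chr5:92348890-92349139, minus strand: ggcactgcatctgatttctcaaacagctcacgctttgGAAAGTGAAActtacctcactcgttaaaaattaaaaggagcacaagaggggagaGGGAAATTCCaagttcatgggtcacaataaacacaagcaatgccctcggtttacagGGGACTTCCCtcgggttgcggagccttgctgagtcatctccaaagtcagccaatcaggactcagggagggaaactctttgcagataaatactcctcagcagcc
Cxcl14 held a TTCNNNGAA match (191 to 183) and a GAAANNGAAA match (172 to 163). The windows of Cxcl9, Cxcl12 and Cxcl13 held none of the 3 motifs. A match describes the letters and is not evidence that a factor binds there.

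The matrices held 5176, 4903, 2164 and 5680 labelled cells at days 0, 2, 5 and 7, with 22330278, 57723171, 5986701 and 40427212 UMIs and medians of 3832.5, 9683, 2018 and 5991 UMIs a cell. Levels are given as cpm, the gene's UMIs per 1000000 UMIs of all genes in the same cells. FAP markers were abundant in the FAP labels, but some other labels went against their markers. Cells labelled Platelets (57 at day 0) had 28.3 cpm of 4 platelet markers, 3 of which were at 0, against 4053 cpm of 5 endothelial markers. Cells labelled B cells had 1.83 cpm of B cell markers at day 2 and 0 at day 5, and those labelled Macrophages/APCs/T-cells at day 5 carried mainly NK and T cell genes. The name of each such label is therefore used below only as the authors' label. Macrophage transcripts were also spread over non-immune labels in 2 of the injured samples. At least 2 of Lyz2, C1qa, C1qb and Ptprc were detected in 0.683%, 75.6%, 8.94% and 51.4% of the cells labelled FAPs at days 0, 2, 5 and 7, and the corresponding shares of endothelial cells were 0.459%, 65.5%, 2.00% and 41.9%. These cells were not thinned, and the median cell labelled FAPs had 4452, 12321, 2785 and 7669 UMIs on those days. Depth therefore enters these shares and each value below given without such cells. Between 9 and 40 cell barcodes were shared by any pair of days.

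FAPs had the highest level of a chemokine more often than any other class. Among the 40 combinations of gene and day, the label with the highest level was a FAP label in 24, an immune label in 11, the Platelets label in 3, the endothelial label in 1 and smooth muscle in 1. In 30 of the 40 the counting interval of the leading label lay above that of the next. Neither count was made over all genes. Whether the chemokines differ from other genes in their leading label or its separation was therefore not tested. FAPs made up 67.9%, 13.6%, 38.3% and 33.3% of the cells at days 0, 2, 5 and 7, and immune cells made up 5.74%, 84.0%, 52.4% and 48.1%. These shares belong to sorted live suspensions and weigh on every share of a gene's UMIs given below, whereas cpm is computed within a label. Transcripts of other cell types found in a label, such as the macrophage transcripts above, still enter its cpm.

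**Figure D1:**
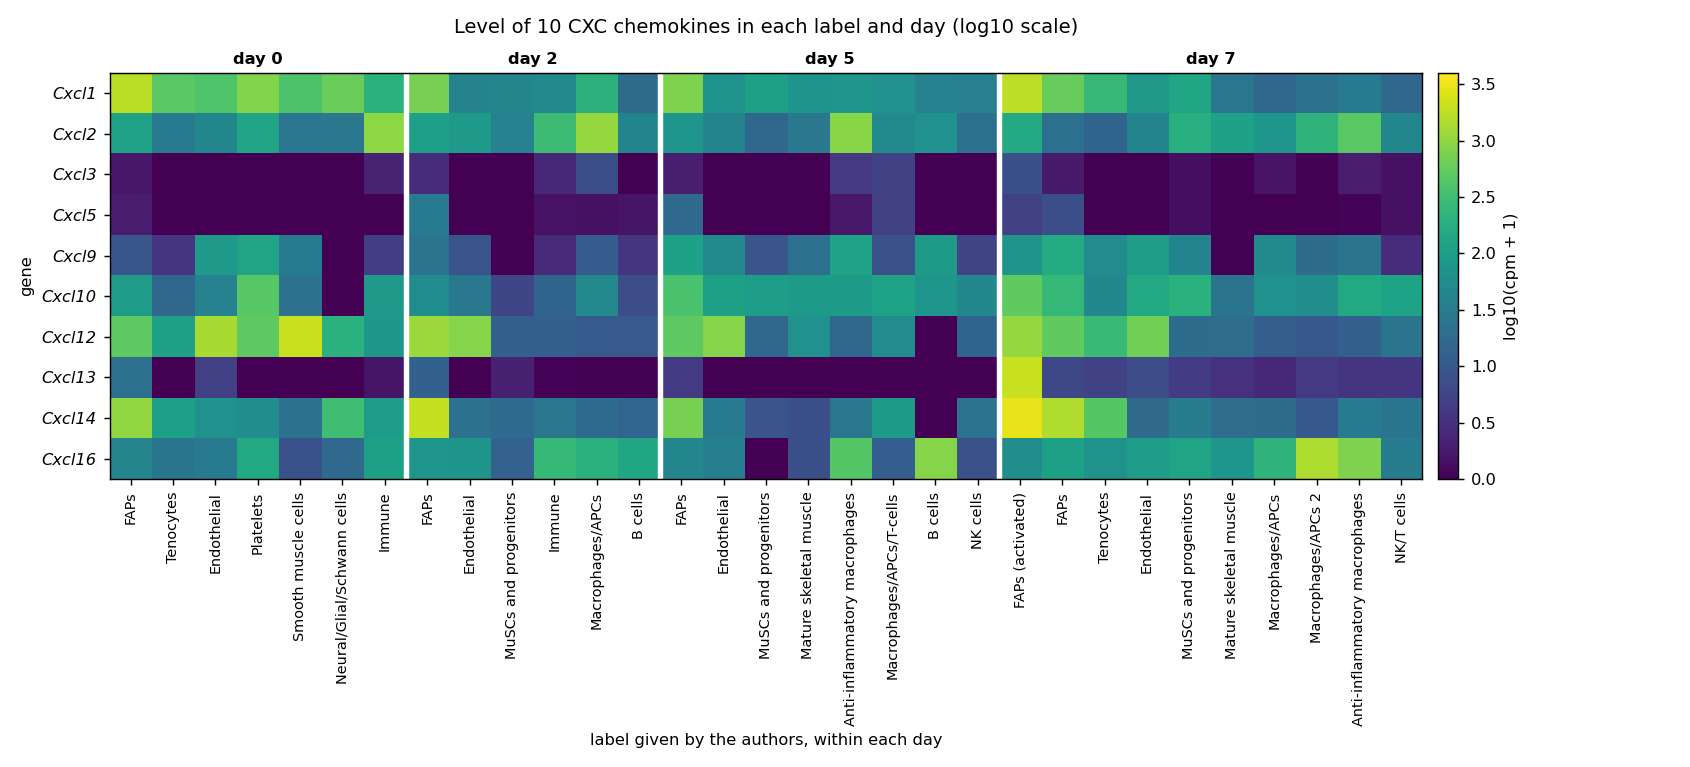
Level of the 10 chemokines in each cell type label (columns, grouped by day) as log10(cpm + 1). Cxcl1, Cxcl12 and Cxcl14 are bright in the FAP labels on all 4 days, Cxcl2 and Cxcl16 in macrophage labels, and Cxcl13 in activated FAPs at day 7, where it reached 1966 cpm.

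Cxcl1, a neutrophil attractant, was foremost a FAP transcript. FAPs held 92.3%, 69.0%, 91.9% and 89.1% of its UMIs at days 0, 2, 5 and 7. In the FAP class its level was 1660 cpm at day 0, 719 cpm at day 2, 802 cpm at day 5 and 752 cpm at day 7, so for the class as a whole it was highest before injury. Activated FAPs at day 7 had 1765 cpm (1709 to 1823), above the day 0 class. The log2 ratios were -1.21 (95% interval -1.25 to -1.17), -1.05 (-1.11 to -0.99) and -1.14 (-1.17 to -1.11) for days 2, 5 and 7 against day 0. Without the FAPs that carried macrophage genes the day 7 value was -0.95, within 2-fold. A UMI of Cxcl1 was found in 67.5% of FAPs at day 0, and in 45.0% after each cell was thinned to 1000 UMIs. Outside FAPs, the next level at day 0 was 848 cpm in the Platelets label, and the lowest was 195 cpm in the Immune label, where 11.4% of thinned cells had a UMI, at median depths of 4452 UMIs in FAPs and 4275 in the Immune label.

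Endothelial cells had 409 cpm of Cxcl1 at day 0, 40.0 cpm at day 2, 69.5 cpm at day 5 and 85.9 cpm at day 7, with log2 ratios of -3.35 (-4.05 to -2.74), -2.56 (-3.51 to -1.75) and -2.25 (-2.45 to -2.06). Immune cells had 195, 62.3, 64.9 and 25.9 cpm on the same days. FAP markers moved with these values: the summed level of 6 FAP markers, all detected on each day, was 10632, 2499, 2468 and 3045 cpm in endothelial cells at days 0, 2, 5 and 7. In immune cells that sum was 498 cpm in the Immune label at day 2 against 5995 cpm in the Immune label at day 0. The part of FAP transcripts in the decline of Cxcl1 outside FAPs was not tested.

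Cxcl2, which shares the CXCR2 receptor and the promoter run with Cxcl1, was highest in immune labels. Immune labels held 43.0%, 93.9%, 84.5% and 85.5% of its UMIs at days 0, 2, 5 and 7, while FAPs held 52.0% at day 0. The highest label was Immune at day 0 with 964 cpm, Macrophages/APCs at day 2 with 1055 cpm, and Anti-inflammatory macrophages at days 5 and 7 with 924 and 483 cpm. The next label was 2.25-fold to 11.9-fold lower on each day, without overlap of the intervals. Over the whole immune class the level was 964, 364, 497 and 388 cpm, and the log2 ratios against day 0 were -1.41 (-1.48 to -1.33), -0.96 (-1.06 to -0.85) and -1.31 (-1.39 to -1.23). The summed level of 5 neutrophil markers (S100a8, S100a9, Csf3r, Retnlg and Ly6g) was 64.5 cpm in the Immune label of day 2, with Ly6g at 0, against 4528 cpm in that of day 0, with all 5 detected. The part of these neutrophil transcripts in the day 0 level was not tested.

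FAPs carried less Cxcl2, at 119, 107, 77.5 and 39.6 cpm over the 4 days, and only the day 7 ratio of -1.59 (-1.73 to -1.46) passed 2-fold. Without the FAPs that carried macrophage genes the day 2 ratio was also past 2-fold, at -1.32 in place of -0.16. Endothelial cells had 43.8, 83.8, 40.6 and 40.6 cpm, none of which differed from day 0 by 2-fold. The transcript was concentrated in few cells. In Macrophages/APCs of day 2, the 55 thinned cells with the most of it held 78.1% of its UMIs and 22.5% of the 546 cells had any, and 1 cell carried 256 of the 4872 UMIs before thinning. In some labels cells with Cxcl1 were more often cells with Cxcl2: in thinned Macrophages/APCs of day 2, 84.2% (68.7 to 94.0) of cells with Cxcl1 had Cxcl2 against 17.9% (14.7 to 21.5) of those without. In the Immune label of day 2 Cxcl2 was found in 53 of 106 cells with Cxcl1 and in 493 of 3299 without, and in FAPs of day 0 the shares were 8.54% and 2.27%. In the Immune label of day 0 they were 17.6% and 22.1%, and in endothelial cells of day 7 they were 2.70% and 2.48%, with overlapping intervals.

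Cxcl3, the closest relative of that pair, was near the limit of detection. All 4 days together gave a few UMIs a label: at day 2, 60 in Immune (1.50 cpm), 29 in Macrophages/APCs (6.28 cpm) and 17 in FAPs (1.85 cpm), and at day 7, 14 in activated FAPs (6.63 cpm), 14 in Anti-inflammatory macrophages (0.952 cpm) and 10 in FAPs (0.812 cpm). Endothelial cells had 0 UMIs on each day, which at day 0 allows up to 0.967 cpm (3 UMIs) or 1.19 cpm by the exact interval. In the FAP class 17 UMIs at day 2 and 24 at day 7 against 12 at day 0 gave log2 ratios of 1.33 (0.18 to 2.53) and 1.18 (0.12 to 2.31), and the day 7 value turned to -1.10 in thinned cells. Cxcl1, Cxcl2 and Cxcl3 are similar in sequence, and how reads shared between such copies were counted is not given in the sources used here.

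Cxcl5 was a FAP transcript at low level. FAPs held 15 of 15 UMIs at day 0 and 92.2%, 92.2% and 96.6% of its UMIs at days 2, 5 and 7. The FAP class had 0.918 cpm at day 0, 29.6 cpm at day 2, 16.1 cpm at day 5 and 5.96 cpm at day 7, so the highest value was the first after injury. Cxcl5 was found in 16.2% of FAPs at day 2, where the median cell had 12321 UMIs, and in 1.20% after thinning, against 0.558% and 0.0587% in the Immune label (median 9665 UMIs). Endothelial cells and tenocytes had 0 UMIs of it on each day they were sampled, which at day 7 allows up to 1.02 cpm (3 UMIs) or 1.26 cpm by the exact interval in endothelial cells, and 4.03 or 4.96 cpm in tenocytes. Among the 4 neutrophil attractants in the FAP class at day 2, Cxcl5 and Cxcl3 were thus above day 0, Cxcl1 was below it and Cxcl2 lay within 2-fold. Without the FAPs that carried macrophage genes Cxcl3 had 2 UMIs at day 2, too few to compare, and Cxcl2 was past 2-fold lower.

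**Figure D2:**
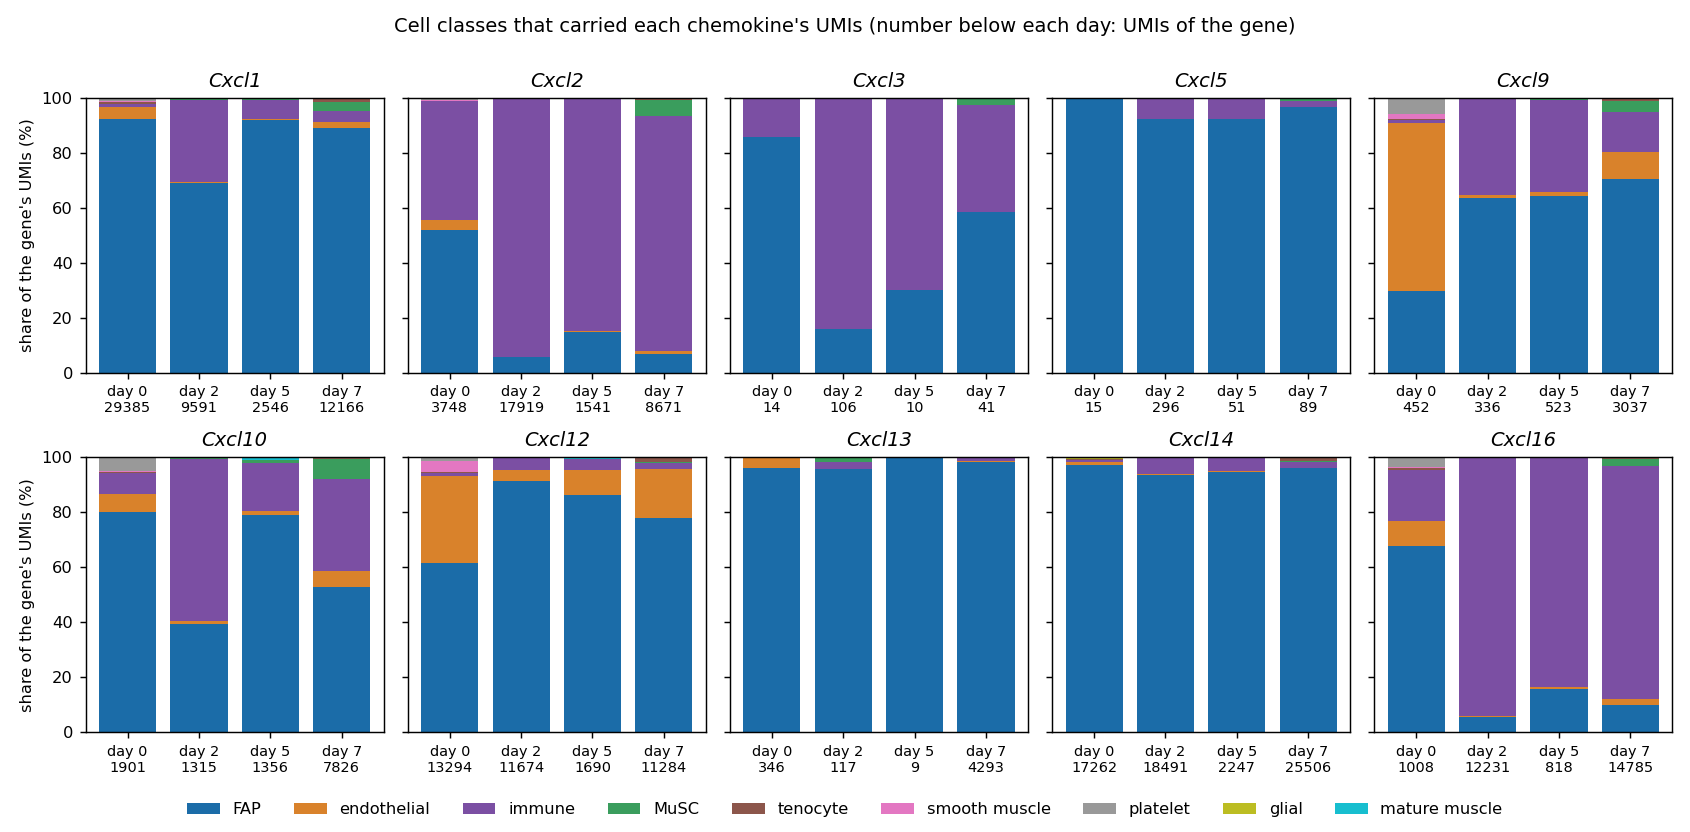
Share of each chemokine's UMIs on a day (vertical axis, %) that lay in each cell class (colours), with the number of UMIs below each bar. FAPs hold most of Cxcl1, Cxcl5, Cxcl13 and Cxcl14 on all 4 days, immune cells hold most of Cxcl2 and Cxcl16 at days 2, 5 and 7, and endothelial cells hold 61.1% of Cxcl9 at day 0.

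Cxcl9, a ligand of CXCR3, changed its source. Before injury endothelial cells held 61.1% of its UMIs at 88.9 cpm and FAPs 29.6% at 8.20 cpm, while the small Platelets label had 127 cpm in 27 UMIs, an interval that overlapped the endothelial one. At days 2, 5 and 7 FAPs held 63.4%, 64.1% and 70.5%. In the FAP class the level was 8.20, 23.1, 115 and 148 cpm over days 0, 2, 5 and 7, with log2 ratios of 1.50 (1.18 to 1.82), 3.81 (3.51 to 4.11) and 4.18 (3.93 to 4.44), each later day being higher. Without the FAPs that carried macrophage genes the day 2 value was 0.44, and the day 5 and day 7 values were 3.71 and 4.18. Endothelial cells had 88.9, 7.62, 52.1 and 100 cpm, the day 2 value resting on 4 UMIs, and day 7 did not differ from day 0 beyond counting error (log2 ratio 0.17, -0.07 to 0.41).

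In immune cells Cxcl9 had 3.59, 2.57, 66.8 and 23.4 cpm over the 4 days. The day 5 level came largely from few cells, since 1 of the 432 Anti-inflammatory macrophages carried 68 of their 161 UMIs (42.2%) and 2 cells held at least as many as the other cells together. At day 7 FAPs had 162 cpm, ahead of endothelial cells by 1.61-fold without overlap, and activated FAPs had 71.5 cpm. A UMI was found in 38.2% of FAPs at day 7 and in 12.0% of thinned ones, against 1.06% of NK/T cells and 0 of 378 thinned ones, with an interval up to 0.971%, at median depths of 7669 and 3946.5 UMIs.

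Cxcl10, which shares the receptor, was found in more labels than Cxcl9. In the FAP class it had 93.3 cpm at day 0, 55.9 cpm at day 2, 367 cpm at day 5 and 287 cpm at day 7, so it dipped within 2-fold at day 2 and stood 3.93-fold and 3.07-fold above day 0 afterwards. Endothelial cells had 39.0, 26.7, 110 and 158 cpm, and the intervals of days 0 and 2 overlapped, as did those of days 5 and 7. Immune cells had 87.4, 16.8, 91.7 and 137 cpm, with a day 2 log2 ratio of -2.38 (-2.63 to -2.11) and both later days within 2-fold. At day 0 the Platelets label had 462 cpm in 98 UMIs, 4.95-fold above FAPs. At day 7 activated FAPs had 531 cpm, FAPs 245, muscle stem and progenitor cells 199, endothelial cells 158, Anti-inflammatory macrophages 151 and NK/T cells 122 cpm, and the endothelial and macrophage values did not differ beyond counting error.

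In several labels the CXCR3 ligands were found in the same cells more often than in others. Among thinned FAPs, 42.9% of cells with Cxcl9 had Cxcl10 at day 5 against 11.9% of cells without it, and at day 7 the shares were 26.1% and 11.4%. In endothelial cells of day 7 they were 22.7% and 3.99%, and in activated FAPs 68.4% (43.4 to 87.4, 19 cells) and 20.4% (16.2 to 25.2). In FAPs of day 2 they were 9.09% and 3.20%, with overlapping intervals. The pair was not alone in this, since Cxcl10 was also more frequent in cells with Cxcl1. Its shares with and without Cxcl1 were 21.5% and 9.83% in FAPs of day 7 and 34.6% and 10.2% in activated FAPs. In stem and progenitor cells of day 7 they were 7.69% and 7.84%. Over the 29 groups of label and day with at least 50 cells, Pearson's r between Cxcl9 and Cxcl10 was 0.69 on log2(cpm + 10), as a description, because groups of 1 day share a library.

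In FAPs the interferon response list of 10 genes was mostly above day 0 at days 5 and 7, as both CXCR3 ligands were, but not at day 2, when Cxcl9 was above and the list was not. Without the FAPs that carried macrophage genes Cxcl9 was within 2-fold at day 2 as well (log2 ratio 0.44). None of the list's genes was above day 0 by 2-fold at day 2 and 4 were below, whereas 8 were above at day 5 and 7 at day 7, none being below. Of all genes measured 10.9%, 10.2% and 9.99% were above at days 2, 5 and 7, and 14.1% were below at day 2. Its median log2 ratio was -0.29, 1.44 and 2.84 at days 2, 5 and 7, against -0.17, -0.01 and -0.08 over all genes measured. Ifi44 stood out with 13.6 cpm at day 7 against 0.918 cpm at day 0 (log2 ratio 3.89), Ifit1 had 223 cpm against 25.8 cpm (3.12), and Irf1, an early interferon and NF-κB target, had 118 cpm against 205 cpm (-0.79). In endothelial cells all 10 genes were below day 0 by 2-fold at day 2, 2 were below at day 5, and at day 7, 2 were above and 1 below. The share of all genes below was 19.7% at day 2 and 16.7% at day 5, so the list's day 5 count lay near that of all genes. At day 7, 7.08% of all genes were above and 10.00% below. Immune cells had 5 of 9 above day 0 at day 5 and 7 of 10 at day 7, against 13.5% and 8.51% of all genes.

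Cxcl12, the CXCR4 ligand, was shared between FAPs and the vessel wall. At day 0 smooth muscle cells had 2013 cpm, endothelial cells 1348 cpm, the Platelets label 509 cpm and FAPs 501 cpm, the last pair not differing beyond counting error. In the FAP class the level was 501, 1157, 501 and 609 cpm over days 0, 2, 5 and 7, so that day 2 stood alone with a log2 ratio of 1.21 (1.17 to 1.25). It was 1.15 without the FAPs that carried macrophage genes. Endothelial cells had 1348, 890, 875 and 679 cpm, with log2 ratios of -0.60, -0.62 and -0.99 (-1.07 to -0.91), each of them within 2-fold. Without the endothelial cells that carried macrophage genes these ratios were -0.06, -0.62 and -0.79. At day 2 the level was then 1298 cpm in endothelial cells and 1112 cpm in FAPs. Endothelial cells also led FAPs at day 2 in thinned cells and as a mean over cells. FAPs held 61.6%, 91.3%, 86.4% and 77.9% of the UMIs over the 4 days and endothelial cells 31.5%, 4.00%, 8.93% and 17.7%, while endothelial cells made up 21.0%, 1.18%, 4.62% and 9.15% of the cells.

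At day 0 Cxcl12 was found in most endothelial cells and in fewer FAPs. In endothelial cells of day 0, 89.1% had a UMI and 66.9% did after thinning, against 20.5% and 6.73% in the Immune label, at median depths of 2203 and 4275 UMIs. The 109 thinned endothelial cells with the most of it held 35.0% of its UMIs. In cells labelled FAPs the thinned shares were 33.3%, 52.3%, 36.5% and 38.3% at days 0, 2, 5 and 7, and the 352 highest cells of day 0 held 51.0%. The thinned shares of endothelial cells were 48.3%, 47.0% and 42.1% at days 2, 5 and 7. That of day 2 rested on 58 cells and was not above the share in FAPs. In immune cells it had 83.2, 11.5, 25.2 and 13.2 cpm. The FAP marker sums given for Cxcl1 were also lower in the Immune label at day 2 than at day 0, and are not given for immune cells of days 5 and 7.

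The receptors of Cxcl12 differed in where they lay. Cxcr4 was highest in the Immune label at day 2 (178 cpm) and in Anti-inflammatory macrophages at day 5 (433 cpm), and had 1.41, 16.5 and 9.94 cpm in FAPs at days 0, 2 and 5. Ackr3, the scavenger of Cxcl12, was highest in FAPs, with 673, 48.3 and 267 cpm at days 0, 2 and 5. At day 7 it had 387 cpm in activated FAPs and 42.6 cpm in FAPs. The day with the most Cxcl12 in FAPs was also a day with little Ackr3 there. Between the FAP labels of day 7 the genes did not move apart, since activated FAPs also had more Cxcl12, at 1083 against 528 cpm.

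Cxcl13, the B cell attractant, was nearly silent until day 7. FAPs had 20.4, 12.2 and 3.09 cpm at days 0, 2 and 5, the day 5 value resting on 9 UMIs, and at day 0 a group of 3 cells held at least as many UMIs as the other FAPs together. At day 7 activated FAPs had 1966 cpm (4153 UMIs) and FAPs 5.12 cpm (63 UMIs), a 384-fold difference with a log2 ratio of 8.59 (8.23 to 8.97). The activated label, which made up 6.20% of the cells of day 7, held 96.7% of the day's Cxcl13 UMIs. In the other labels of day 7 the level was between 1.62 and 6.13 cpm.

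A minority of the activated FAPs carried it. A UMI of Cxcl13 was found in 30.1% of the 352 cells and in 18.8% after thinning, against 1.59% and 0.265% of NK/T cells, at median depths of 5056 and 3946.5 UMIs. One cell had 434 UMIs, and 8 cells together held at least as many as the remaining ones. After thinning the 36 highest cells held 90.9%, and the variance was 19.6 times the mean. Cells with Cxcl13 were more often cells with Cxcl14 (65.2%, 52.4 to 76.5, against 23.8%, 19.0 to 29.1, of cells without), and Cxcl13 itself was found in 31.9% of cells with Cxcl12 against 9.95% of those without. Cxcr5, its receptor, had at most 8.94 cpm in any label, and B cell markers were at or near 0 in the cells labelled B cells.

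Cxcl14, the constitutive stromal chemokine, belonged to FAPs on all 4 days. They held 97.0%, 93.7%, 94.7% and 96.0% of its UMIs, and the class level was 1024, 1881, 730 and 1698 cpm over days 0, 2, 5 and 7. All 3 ratios against day 0 lay within 2-fold, at 0.88 (0.85 to 0.91), -0.49 (-0.56 to -0.42) and 0.73 (0.70 to 0.76). A UMI was found in 77.4% of FAPs at day 2 and in 47.5% of thinned ones, against 21.1% and 2.61% in the Immune label. Endothelial cells had 65.1, 21.0, 29.0 and 16.4 cpm and immune cells 97.0, 24.4, 42.8 and 27.8 cpm. In endothelial cells of day 0, 1 cell carried 56 of the 202 UMIs (27.7%). Without the 5% of cells with the most UMIs in each label, the endothelial log2 ratios were -0.75, -0.07 and -0.99, in place of -1.64, -1.17 and -1.99. One cell of the Immune label at day 0 carried 104 of its 162 UMIs (64.2%). The FAP marker sums given above were also lower in the Immune label at day 2 than at day 0, though their part was not tested. In tenocytes the level was 453 cpm at day 7 against 107 cpm at day 0.

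Cxcl16, the transmembrane ligand of CXCR6, passed from FAPs to macrophages in its share of UMIs. FAPs held 67.8% of its UMIs at day 0, and immune cells held 18.5%, 93.8%, 83.4% and 85.1% at days 0, 2, 5 and 7. The level was already higher in immune cells than in FAPs at day 0 (111 against 41.8 cpm), when FAPs were 67.9% of the cells. The immune level of Cxcl16 was 111, 248, 261 and 659 cpm at days 0, 2, 5 and 7, the highest at day 7, with log2 ratios of 1.16 (0.95 to 1.37), 1.23 (0.99 to 1.47) and 2.56 (2.36 to 2.78). At day 7 Macrophages/APCs 2 had 1458 cpm, Anti-inflammatory macrophages 789 cpm, Macrophages/APCs 222 cpm and NK/T cells 31.5 cpm. A UMI was present in 96.9% of Macrophages/APCs 2 (71.9% after thinning) and in 51.1% of Macrophages/APCs (18.5% after thinning). In the same way 92.6% of Anti-inflammatory macrophages had a UMI and 50.2% did after thinning, against 7.67% and 1.59% of NK/T cells, at median depths of 6421 and 3946.5 UMIs. The 196 highest of the 1960 thinned Anti-inflammatory macrophages held 37.1% of Cxcl16, and the 196 highest for Cxcl2 held 87.3% of that gene.

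Outside immune cells Cxcl16 also stood higher at day 7. The FAP class had 41.8, 75.4, 44.2 and 103 cpm over the 4 days and endothelial cells 29.0, 72.4, 34.8 and 95.4 cpm. Both were highest on the days on which many of these cells carried macrophage genes, days 2 and 7. Without such cells the endothelial log2 ratio was 0.20 in place of 1.32 at day 2 and 1.20 in place of 1.72 at day 7. The FAP ratio was then 0.65 in place of 0.85 at day 2 and 1.02 in place of 1.30 at day 7, so both day 7 values stayed past 2-fold. Cxcr6 was highest in the label Macrophages/APCs/T-cells at day 5 (109 cpm) and in NK/T cells at day 7 (66.6 cpm), and the ADAM10 sheddase gene Adam10 was measured in every label, with 36.2 cpm in Anti-inflammatory macrophages of day 7.

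**Figure D3:**
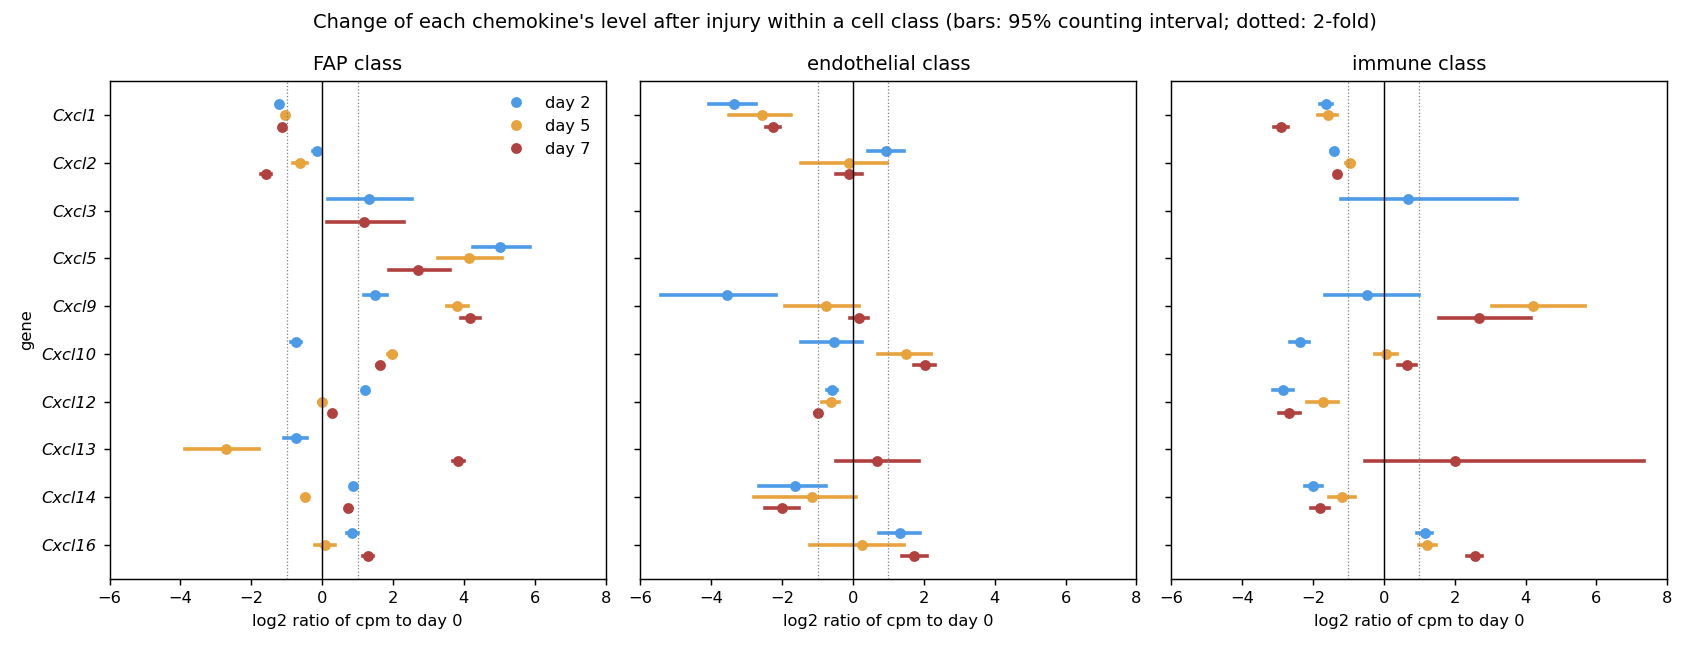
Log2 ratio of each chemokine's cpm at days 2, 5 and 7 to day 0 (horizontal axis) within FAP, endothelial and immune cells, with 95% counting intervals as bars and dotted lines at 2-fold. Genes with under 20 UMIs over both days are left out. Cxcl1 lies left of the zero line in all 3 classes on all 3 days, and Cxcl9 in FAPs lies right of it, at 1.50, 3.81 and 4.18.

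Counted over the genes with at least 20 UMIs in a comparison, more members passed 2-fold upwards than downwards in FAPs. At day 2, 4 of 10 were above day 0 and 1 was below, where 10.9% of all 12995 genes measured were above and 14.1% below. At day 5, 3 of 9 were above and 2 below, against 10.2% and 10.3% of all genes. At day 7, 6 of 10 were above and 2 below, against 9.99% and 10.6%. The members' median log2 ratio was 0.86, 0.0004 and 1.24 at days 2, 5 and 7, against -0.17, -0.01 and -0.08 over all genes, so that the day 5 median lay close to that of all genes. Without FAPs carrying macrophage genes the counts were 2 above and 2 below of 9 at day 2, and 6 above and 1 below at day 7.

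Endothelial cells had 1 member above and 3 below of 7 at day 2, where 6.58% of all genes were above and 19.7% below. At day 5 they had 1 above and 2 below of 7 (12.2% and 16.7% of all genes), and at day 7 they had 2 above and 2 below of 8 (7.08% and 10.00%). Immune cells had 1 above and 5 below of 8 at day 2, against 8.05% and 23.3% of all genes. At day 5 they had 2 above and 3 below of 7 (13.5% and 13.2%), and at day 7 they had 3 above and 4 below of 8 (8.51% and 16.4%). The immune members below day 0 on all 3 days by 2-fold were Cxcl1, Cxcl12 and Cxcl14, and Cxcl16 was above on all 3. One of the immune members above at day 7 was Cxcl13, with 46 UMIs at day 7 against 1 at day 0.

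Muscle stem and progenitor cells could be set side by side at days 7 and 2, and tenocytes at days 7 and 0. In the stem and progenitor label 5 of 7 members were above day 2 and none below, where 25.9% of all genes were above and 8.58% below. Cxcl10 had 199 cpm at day 7 against 4.59 cpm at day 2, Cxcl16 had 127 against 12.6 cpm, and Cxcl1 had 134 against 41.9 cpm. Cxcl9 had 115 UMIs at day 7 and 0 at day 2, at least 23.8-fold higher against a floor of 3 UMIs. Cxcl2 had 181 cpm against 38.5 cpm, but 1 cell carried 244 of its 506 UMIs at day 7 (48.2%). Macrophage markers moved with these values, their sum being 5204 cpm at day 7 against 1576 cpm at day 2. The median cell had 5881 UMIs at day 7 and 34387 at day 2, so depth enters the number of cells found with macrophage genes. At day 2, 56 of the 58 cells carried macrophage genes, so no comparison without them was possible for most members. In the day 7 cells that carried none, the level of Cxcl16 was 5.93 cpm in place of 127 and that of Cxcl2 was 11.9 cpm in place of 181, whereas Cxcl1 had 154 cpm in place of 134 and Cxcl10 stayed at 199 cpm. The digestion list described below also moved with these values, 7 of its 8 genes being above day 2 at a median log2 ratio of 2.11. In tenocytes 5 of 7 members were above day 0 and 1 below, against 12.9% and 7.80% of all genes. Of the 3 that could be measured without cells carrying macrophage genes, Cxcl14 was still above day 0 (908 cpm against 114 cpm) and Cxcl1 was below.

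At day 7 the authors split FAPs into activated FAPs and FAPs, and 7 of the 10 members were above 2-fold in the activated label and 1 was below. Of all genes 5.57% were above and 13.6% below. The labels were made from the expression of these same cells, so the difference is a description. Beside Cxcl13, activated FAPs had 1765 cpm of Cxcl1 against 578 cpm in FAPs (log2 ratio 1.61, 1.55 to 1.67), 156 against 19.7 cpm of Cxcl2 (2.99, 2.74 to 3.23), and 531 against 245 cpm of Cxcl10 (1.12, 1.02 to 1.22). Cxcl12 and Cxcl14 stood at 1.04 and 1.05, just past the line, and each turned below 0 when the mean of the authors' natural-log values was taken. Cxcl9 was lower in activated FAPs, with 71.5 cpm against 162 cpm (-1.18, -1.43 to -0.94), and Cxcl16 had 58.7 against 110 cpm (-0.91). Cxcl5 had 3.79 against 6.33 cpm with overlapping intervals. Without the cells that carried macrophage genes 5 of 9 members were above and 1 below. Cxcl9 was then within 2-fold at -0.76, Cxcl14 was within it at 0.56, Cxcl3 had 0 UMIs in activated FAPs, and the member below was Cxcl16 at -1.40. Cxcl9 and Cxcl10 thus lay on opposite sides between the FAP labels, with Cxcl9 past 2-fold only when cells with macrophage genes were kept.

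**Figure D4:**
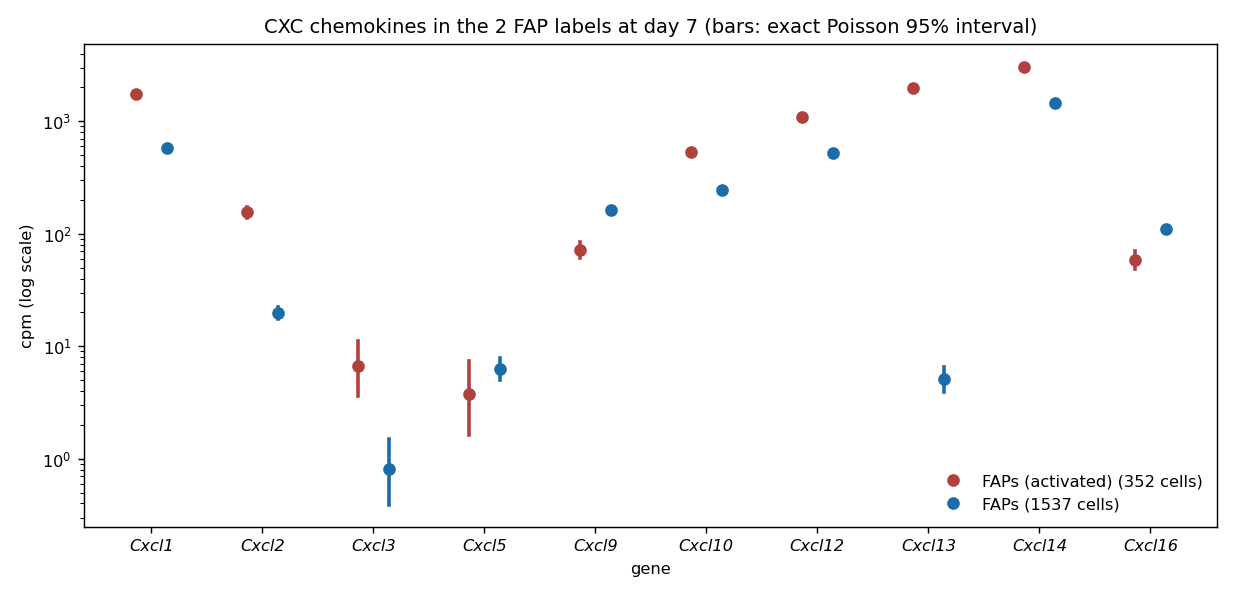
Level of the 10 chemokines (cpm, log axis) in activated FAPs and in FAPs at day 7, with exact Poisson 95% intervals. Cxcl13 shows the widest gap, 1966 against 5.12 cpm, and Cxcl9 lies the other way, 71.5 against 162 cpm.

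The activated label was also higher in NF-κB response genes, with 6 of 10 above 2-fold, none below and a median log2 ratio of 1.36 against -0.21 over all genes. The interferon response list had 0 above and 1 below of 10, at a median of 0.14. A list of 8 genes that tissue digestion induces (Fos, Jun, Junb, Atf3, Egr1, Ier2, Hspa1a and Hspa1b), added after the data had been seen, had 1 above and none below, at a median of 0.03. Macrophage markers had 1170 cpm in activated FAPs and 1056 cpm in FAPs. Between days in the FAP class, the NF-κB response list had 0 above and 4, 3 and 4 below day 0 at days 2, 5 and 7, where 14.1%, 10.3% and 10.6% of all genes were below. Its medians were -0.73, 0.18 and -0.93, so that of day 5 lay on the other side. Nfkbia, the inhibitor that NF-κB itself induces, had 330, 358 and 276 cpm in FAPs at days 2, 5 and 7 against 835 cpm at day 0. The digestion list moved with Cxcl1 in FAPs at day 2, when 6 of 8 were below day 0, while at day 5, 1 was above and 2 below, and at day 7, 1 was below. In endothelial cells 6, 2 and 7 of its 8 genes were below day 0 at days 2, 5 and 7. Of all genes 19.7%, 16.7% and 10.00% were below there. In immune cells 7, 2 and 2 of the 8 were below, at a median of -1.78 at day 2, against 23.3%, 13.2% and 16.4% of all genes. At day 5, 1 gene of the list was above day 0 in each of these classes. Cxcl1 was past 2-fold lower in both classes at days 2, 5 and 7. Its part in the level of Cxcl1 was not tested.

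**Figure D5:**
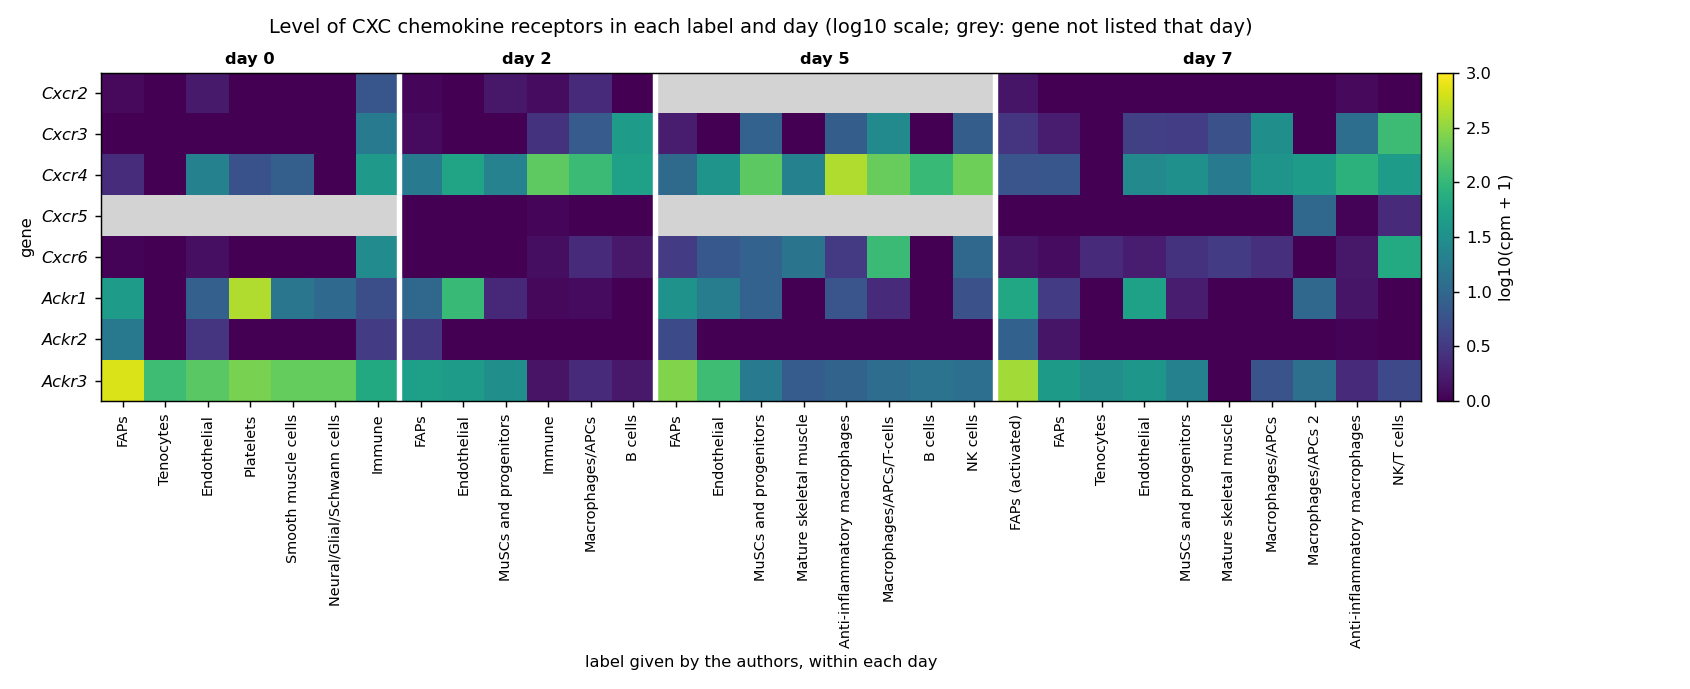
Level of CXC chemokine receptors in each label and day as log10(cpm + 1), with grey where a gene was not listed. Cxcr4 is highest in Anti-inflammatory macrophages of day 5 (433 cpm), Cxcr3 in NK/T cells of day 7 (113 cpm), and Ackr3 in FAPs of day 0 (673 cpm).

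Among the remaining receptors, Cxcr2, through which the ELR chemokines act, had at most 5.39 cpm, in the Immune label of day 0 that carried the neutrophil markers. Cxcr3 reached 113 cpm in NK/T cells at day 7 and 42.8 cpm in the cells labelled B cells at day 2, and had 16.2 cpm in the Immune label at day 0. Ackr1, which binds many inflammatory chemokines on venules, had 443 cpm in the Platelets label at day 0, and 61.5 cpm in activated FAPs against 2.36 cpm in FAPs at day 7. Pf4, a CXC chemokine known from platelets, reached 3528 cpm in the Immune label at day 2 and 1024 cpm in that of day 0, with 4.71 cpm in the Platelets label. Of the enzymes that trim or shed chemokines, Mmp14 had 179, 259 and 460 cpm in FAPs at days 0, 2 and 5. Dpp4, which inactivates Cxcl10 and Cxcl12 by trimming, had 87.7, 12.9 and 45.6 cpm in FAPs at days 0, 2 and 5, and at day 7 it had 73.8 cpm in activated FAPs and 9.91 cpm in FAPs.

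Across the 29 groups of label and day the members fell into patterns shared with other genes. These correlations on log2(cpm + 10) are descriptions without p-values, since groups of 1 day share a library and its depth. Cxcl14 was most like Pdgfra (r = 0.93), the FAP receptor gene, and Cxcl1 most like Adamts5 (0.90), an extracellular matrix protease. Cxcl12 was most like Dlc1 (0.96), and Cxcl13 most like Saa1 and Saa3 (0.90 and 0.86), which encode acute-phase proteins. The rank correlation of Cxcl13 with Saa1 was lower, at 0.48, and most groups had almost no Cxcl13. Cxcl2 was most like Ccl9 (0.84) and Cd14 (0.83), both of myeloid cells, and Cxcl16 most like Tctex1d2 (0.91) and Ctsh (0.89). Cxcl9 was most like Ifit3 (0.81) and Ifit1 (0.80), and Cxcl10 most like Cxcl9. Among the members themselves the highest values were between Cxcl1 and Cxcl14 (0.80) and between Cxcl1 and Cxcl12 (0.70), and the lowest was between Cxcl12 and Cxcl16 (-0.37). Cxcl1 and Cxcl2, which share the promoter run, had r = -0.06.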

How the data were processed

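Single-cell libraries were made with the 10x Chromium 3' v2 kit from tibialis anterior digested for about 1 h with Collagenase D and Dispase II, with red cells lysed and live cells sorted, per the labels' protocols. Tools named in the submitters' processing notes are Cell Ranger 2, Seurat 2.3.4 and R 3.6.2, with build mm10. The authors deposited UMI counts per gene and cell, natural log values normalized to 10000 per cell, and metadata with cell type labels and the fraction of mitochondrial UMIs, from which 12 columns of per-cell values (3 a table) were not used. The deposited natural log values equalled ln(1 + 10000 × count / cell total) within 6.22e-15. The metadata's injury column reads day 0 in each table, so days came from the labels.

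UMIs were summed per label and day in Python 3.11.15 (numpy 2.4.6, pandas 2.3.3, scipy 1.17.1, matplotlib 3.10.9). The 2 runs of day 0 were 1 matrix and count as 1 sample. Unlabelled barcodes (14, 21, 13 and 9 at days 0, 2, 5 and 7) were left out, and doublets were not called. Levels carry exact Poisson 95% intervals, ratios the exact binomial split of both counts, and shares exact Clopper-Pearson intervals. These cover counting error only. A gene was measured in a comparison with at least 20 UMIs over both sides and counted past 2-fold, with a floor of 3 UMIs for a side at 0. Labels under 50 cells were not ranked. Shares of cells and co-detection used cells thinned to 1000 UMIs, leaving out 1 shallower cell. The ratio was tested on simulated data. The genes named are the 10 members, the fixed lists of receptors, other ligands, enzymes, NF-κB and interferon genes (from which examples are the largest or smallest ratios or levels), and the 3 genes most like each member among those reaching 100 cpm. Other genes of these lists were chosen after their values were seen. Members and lists were chosen with earlier results of these data known, and the digestion list after seeing the data. Motifs came from RefSeq promoters of GRCm38.p6. Gene positions came from an annotation of GRCm38.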

Additional observations from a re-analysis of the deposited data

Results flagged for a closer look

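Several members lay past 2-fold in opposite directions in different cell classes on the same day, each class being 1 sample a day. The differences between classes themselves were not tested. At day 2 against day 0, Cxcl12 had a log2 ratio of 1.21 in FAPs and -2.85 in immune cells, and Cxcl9 had 1.50 in FAPs and -3.54 in endothelial cells. The FAP value of Cxcl9 was 0.44 without cells that carried macrophage genes. At day 7 against day 0, Cxcl12 had 1.19 in tenocytes and -2.66 in immune cells. The tenocyte value was -0.27 without cells that carried macrophage genes, 0.48 in thinned cells and 0.92 as a mean over cells, none of them past 2-fold. Cxcl14 had 2.08 in tenocytes on that day, against -1.99 in endothelial cells and -1.80 in immune cells. The endothelial value was -0.99, within 2-fold, without the 5% of cells with the most UMIs in each label. In tenocytes of day 7, 1 cell carried 106 of the 337 UMIs (31.5%).

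Barcodes without a cell type label, which entered no comparison, also carried the 10 chemokines. Their members' UMIs were 36 in 14 barcodes at day 0 (587 cpm), 298 in 21 at day 2 (359 cpm), 390 in 13 at day 5 (2867 cpm) and 290 in 9 at day 7 (2558 cpm). The leading member was Cxcl1 at days 0 and 5 (18 and 137 UMIs), Cxcl12 at day 2 (119) and Cxcl2 at day 7 (148).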

How the results depend on the processing

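Each day is 1 matrix and the 2 runs of day 0 cannot be separated, so no replicate could be left out. No paired analysis was possible because no test was run and the runs share 1 matrix. Of 66 ratios past 2-fold, all 66 stayed past it both with cells under 10% mitochondrial UMIs and without the 50 most abundant genes. In the other settings a ratio was counted wherever it could still be formed, with no minimum of UMIs. Then 49 of 61 stayed past 2-fold in thinned cells, 56 of 65 as means over cells and 57 of 65 without the 5% deepest cells. Without macrophage-gene cells 52 of 61 did. That setting left out cells outside the immune labels only, so the immune ratios among the 61 could not change. Signs turned for Cxcl3 in FAPs at day 7 (-1.10 thinned, -0.0747 without the deepest cells), Cxcl16 in endothelial cells at day 2 (-0.58 thinned), Cxcl12 in tenocytes (-0.27 without macrophage-gene cells) and Cxcl2 in tenocytes (0.77 without the deepest cells). With the authors' natural-log values they turned for Cxcl2 in stem and progenitor cells (-0.13), Cxcl2 in tenocytes (0.0021), and Cxcl12 and Cxcl14 in activated FAPs (-0.0336 and -0.50). The causes were not tested. At 4-fold, by construction, fewer members passed: 1, 3 and 3 in FAPs at days 2, 5 and 7, 2, 1 and 2 in endothelial cells, 2 and 1 in immune cells at days 2 and 5, 2 in tenocytes and 3 in activated FAPs. Thinning left 5 in FAPs at day 7 and 2 in tenocytes, and a minimum of 50 UMIs left 3 in tenocytes. Leaving out macrophage-gene cells, chosen after seeing the data, left 0 in stem and progenitor cells and 2 in tenocytes. The leading label changed in 3 of 40 combinations with means over cells, 7 with thinned cells and 1 with labels of at least 20 cells.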
